A study of Mus musculus with 21 samples.

Results

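Mouse 1C11NE cells that had been given acrylamide directly, in plain medium, were compared with 1C11NE cells given the vehicle. Acrylamide is a small reactive vinyl monomer whose electrophilic double bond binds thiol groups, and it is toxic to nerve cells. The rule takes the ACR and PBS libraries of the deposited count table and every gene that passes a filter on low counts. That gave 6 of the 21 libraries of the series and 11881 of its 24263 gene symbols. The ACR group (3 libraries) held cells exposed to 1 mM acrylamide for 24 h, and the PBS group (3 libraries) held cells exposed for 24 h to phosphate-buffered saline with 0 mM acrylamide. All of them came from 1C11, a clonal neuroectodermal line of strain 129, kept with 10% serum and 10% CO2. The labels say that 12 days with 1 mM dibutyryl cAMP, 2% dimethyl sulfoxide and 0.05% 1-methylcyclohexanecarboxylic acid had turned them toward a noradrenergic fate. For comparison, 2 further acrylamide experiments of the series were used. One gave 1 mM acrylamide in PBS-CM, the medium of BV2 cells kept with vehicle (PBS-CM+ACR), and set it against PBS-CM alone. The other gave 1 mM acrylamide (BV2_ACR) or vehicle (BV2_PBS) to BV2 cells, a microglial line of strain C57BL/6.

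Acrylamide is cleared from cells largely by conjugation to glutathione, the main small thiol of the cytosol. Electrophiles that modify the sensor KEAP1 release the transcription factor NRF2 (gene Nfe2l2), which binds antioxidant response elements in the promoters of genes for glutathione synthesis, glutathione transferases, peroxide removal, quinone reduction and iron storage. Neuronal cells are known to make less glutathione than glial cells, and damage by acrylamide is best known at the ends of long axons.

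Levels are TMM-scaled CPM, that is, counts relative to the scaled library total, and log2 fold changes are ACR over PBS, given ± SE. Genes with an adjusted p below 0.05 were called. Total counts were 3980649, 4965374 and 4272521 in the ACR libraries and 6637438, 7391991 and 4250124 in the PBS libraries. Ribosomal RNA took 3.60 to 4.24% of the counts in ACR libraries and 3.59 to 4.37% in PBS libraries. Transcripts of ribosomal proteins took 6.11 to 9.93% and 6.802 to 8.63% of them. On principal components of the 6 libraries, the first axis (37.5% of the variance) separated ACR from PBS. The second held 28.3% and set ACR 3 and PBS 2 against ACR 2 and PBS 3, the libraries with the lowest and highest ribosomal protein shares of their groups. The labels do not say whether replicates were separate cultures. If they were not, the p-values reflect technical spread only.

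The label was first checked against marker genes. Of 45 markers of neuronal cytoskeleton and synapse 43 were in the table and 17 passed the filter. Rbfox3, Elavl4, Nefh, Stmn4 and Cntn1 had no count in any of the 6 libraries. Tubb3, the neuronal beta-tubulin, had 3.50, 4.02 and 2.59 CPM in ACR cells and 2.24, 3.14 and 2.54 CPM in PBS cells. The noradrenaline transporter gene Slc6a2 had 1.25, 0.603 and 1.65 CPM in ACR cells and 1.79, 1.28 and 2.77 CPM in PBS cells, too low for testing, and the vesicular transporter Slc18a2 had 1.25, 0.201 and 0 CPM in ACR cells and 0.895, 0.143 and 1.38 CPM in PBS cells. The neural adhesion gene Ncam1 (579, 476 and 493 CPM in ACR cells and 829.9, 833 and 678 CPM in PBS cells) and the microtubule gene Map1b (134, 114 and 161 CPM in ACR cells and 116, 123 and 109.8 CPM in PBS cells) were well covered. So was the mesenchymal gene Col1a2, with 561, 440.5 and 729 CPM in ACR cells and 1586, 1795 and 1365 CPM in PBS cells. Most neuron-defining markers were thus at or near 0, and the cells are called 1C11NE cells below. Of 20 microglia markers 10 had no count in any library, among them Ptprc, Aif1, Tyrobp and Spi1.

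Acrylamide changed 362 of the 11881 genes tested (3.05%). Of these, 126 were higher in ACR cells (1.06% of the genes tested) and 236 were lower (1.99%). The median log2 fold change of all genes was 0.00, and 1892 genes had an unadjusted p below 0.05. The ACR libraries lay entirely above or below the PBS libraries for 2519 genes (21.2%), above for 1293 (10.9%) and below for 1226 (10.3%), and all 362 called genes were among them. A change of more than 2-fold was seen for 53 of the higher genes and 122 of the lower genes. The higher genes took 2.73, 3.01 and 2.91% of the scaled counts in ACR libraries and 1.13, 1.16 and 1.23% in PBS libraries. The lower genes took 1.23, 1.12 and 1.28% in ACR libraries and 2.57, 2.89 and 2.31% in PBS libraries. The counts of calls depended on single libraries: without ACR 1 they were 51 higher and 107 lower, without PBS 1 53 and 119, without PBS 2 61 and 124, and without ACR 3 198 and 378. When all 15 libraries of 1C11NE, conditioned medium included, shared the fit, 58 genes were higher and 90 lower.

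**Figure D1:**
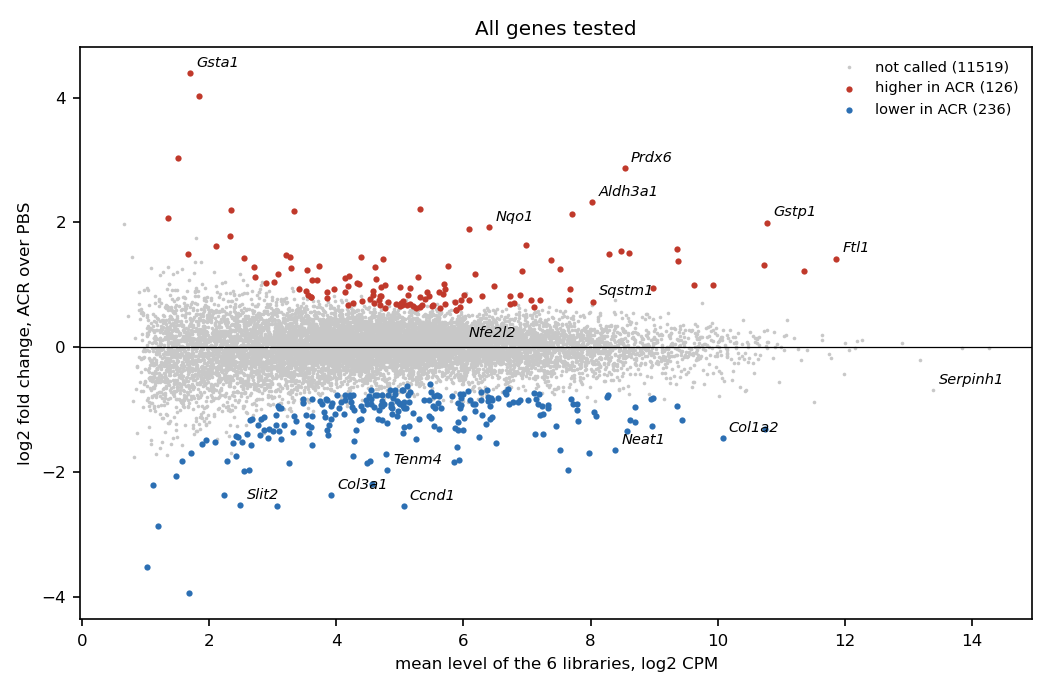
Each of the 11881 points is a gene tested, with its mean level over the 6 libraries (log2 CPM) on the x axis and its log2 fold change, ACR over PBS, on the y axis. Red points (126) were called higher in ACR cells and blue points (236) lower. Among called genes with at least 20 CPM in 1 group, the largest fold changes are those of Prdx6 above and Ccnd1 below the line at 0.

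Genes on either side of the adjusted p threshold differed in the size of their change. Just inside it were Wdyhv1 (0.81 ± 0.21) and Fam177a (0.63 ± 0.17) among higher genes and Hoxa11os (-1.52 ± 0.40) among lower genes. Just outside were Abcc4 (1.75 ± 0.46), Dclk1 (-0.69 ± 0.18) and Tmem179b (0.75 ± 0.20). Abcc4, an exporter of organic anions, had 4.00, 4.22 and 7.99 CPM in ACR cells and 0.895, 2.71 and 0.923 CPM in PBS cells. Its libraries did not overlap, but it had few counts and was not called (adjusted p = 0.0506).

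Genes of the glutathione and redox system led the increases, and 4 of their promoters are printed here because they hold the letters of an antioxidant response element. Each is the stretch from 250 bases before to 50 bases after the start site in RefSeq's annotation of GRCm38.p6, on the strand of its gene and 5′ to 3′. Capitals mark the match to TGACNNNGC, searched on both strands; on the other strand the match reads in reverse complement. Gclm (chr3:122245307-122245606, plus strand) encodes the modifier subunit of glutamate-cysteine ligase, Pir (chrX:164269181-164269480, plus strand) an iron-binding nuclear protein, Prdx1 (chr4:116685349-116685648, plus strand) a peroxiredoxin and Srxn1 (chr2:152105274-152105573, plus strand) sulfiredoxin.
Gclm: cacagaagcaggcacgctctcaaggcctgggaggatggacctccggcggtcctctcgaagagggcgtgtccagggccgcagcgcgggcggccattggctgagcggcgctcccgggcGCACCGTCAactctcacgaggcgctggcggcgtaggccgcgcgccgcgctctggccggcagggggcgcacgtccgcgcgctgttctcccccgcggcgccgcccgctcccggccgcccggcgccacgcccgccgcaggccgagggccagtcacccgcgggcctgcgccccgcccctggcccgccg
Pir: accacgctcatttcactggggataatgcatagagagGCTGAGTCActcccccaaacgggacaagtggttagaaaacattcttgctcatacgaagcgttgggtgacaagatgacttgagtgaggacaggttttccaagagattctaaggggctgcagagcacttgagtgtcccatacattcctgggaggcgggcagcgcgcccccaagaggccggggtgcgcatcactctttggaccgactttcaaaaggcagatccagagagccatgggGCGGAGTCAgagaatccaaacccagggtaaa
Prdx1: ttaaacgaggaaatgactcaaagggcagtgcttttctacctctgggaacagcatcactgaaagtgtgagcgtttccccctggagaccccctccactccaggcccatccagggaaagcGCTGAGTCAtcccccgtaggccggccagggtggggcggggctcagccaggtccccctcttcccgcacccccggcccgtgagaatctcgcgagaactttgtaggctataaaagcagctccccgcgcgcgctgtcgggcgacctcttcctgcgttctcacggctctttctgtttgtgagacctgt
Srxn1: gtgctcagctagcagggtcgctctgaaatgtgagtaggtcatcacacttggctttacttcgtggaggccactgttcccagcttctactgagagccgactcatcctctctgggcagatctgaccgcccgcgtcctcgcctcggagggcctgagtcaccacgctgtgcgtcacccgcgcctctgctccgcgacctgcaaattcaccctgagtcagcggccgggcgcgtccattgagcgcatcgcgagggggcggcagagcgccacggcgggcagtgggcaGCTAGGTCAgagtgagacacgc
The match began 134 bases before the start site in Gclm and 133 bases before it in Prdx1. In Srxn1 it began at base 29 of the transcript, and Pir held one match 214 bases before and another from base 20 after the start. Of 34 called increases on the redox gene lists 28 had a promoter in the table, and 8 of the 28 (28.6%) held the letters. The other 4 were Hagh, Mgst1, Pgd and Txnrd1. Counted per gene with a promoter sequence, the letters were found in 17 of 98 genes called higher (17.3%) and 24 of 171 called lower (14.0%). They were in 1469 of 8738 genes tested and not called (16.8%) and in 3781 of all 27025 genes (14.0%). Counted per sequence of that length, they were in 4071 of 32851 (12.4%). The more specific form TGACTCAGC, a case of the first motif, was in 3 of 98 higher genes (3.06%), Pir and Prdx1 among them, and in 0 of 171 lower genes. It was in 0.503% of all 27025 genes and in 0.454% of all sequences. A match describes letters in these windows and not a bound site.

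Glutathione synthesis and recycling had 16 tested genes, of which 6 were higher and 0 lower, where 1.06% of all genes tested were called higher. Its median log2 fold change was 0.32 against 0.00 for all genes. Gclm, whose product modifies glutamate-cysteine ligase, the rate-limiting enzyme, had 106, 105 and 110.0 CPM in ACR cells and 25.7, 29.0 and 32.3 CPM in PBS cells. The ACR libraries lay within a narrow range, more than 3 times the highest PBS library. That is a 3.71-fold increase (1.89 ± 0.16, adjusted p = 1.44e-05). The catalytic subunit gene Gclc had 108, 107 and 141 CPM in ACR cells and 57.1, 70.4 and 53.5 CPM in PBS cells (0.97 ± 0.18, adjusted p = 0.00551). Slc7a11, which imports cystine for glutathione, had 957, 712 and 1196 CPM in ACR cells and 333, 441 and 324 CPM in PBS cells, a 2.61-fold increase (1.38 ± 0.23, adjusted p = 0.00274). Its ACR libraries varied widely, with ACR 2 the lowest and ACR 3 the highest, at the opposite ends of the second principal component. Glutathione synthetase (Gss) rose 2.66-fold and glutathione reductase (Gsr) 2.17-fold, and Ggt5, which cleaves extracellular gamma-glutamyl conjugates, rose 2.72-fold. Their adjusted p-values were 0.000282, 0.001 and 0.0039. Gclc lost its call without PBS 1 (adjusted p = 0.0563) and Slc7a11 with all 15 libraries in the fit (adjusted p = 0.0726).

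Glutathione transferases, which join glutathione to electrophiles, gave 8 higher genes and 0 lower among 25 tested genes of conjugation and conjugate export, with a median of 0.33. Gsta4, a form active on lipid aldehydes, had 57.7, 72.3 and 66.3 CPM in ACR cells and 16.7, 9.56 and 16.4 CPM in PBS cells. All 3 ACR libraries were at least 3 times the highest PBS library, and the increase was 4.65-fold (2.22 ± 0.21, adjusted p = 2.3e-05). Gstp1, the pi-class enzyme, had 2522, 3132 and 2782 CPM in ACR cells and 651, 671 and 791 CPM in PBS cells (2.00 ± 0.21, adjusted p = 7.02e-05). Gstm1 of the mu class had 538, 523 and 534 CPM in ACR cells and 173, 189 and 185 CPM in PBS cells, a 2.92-fold increase with little spread in either group (1.54 ± 0.18, adjusted p = 0.000223). Gstp2 rose 2.62-fold, microsomal Mgst1 1.94-fold and Gstm2 1.69-fold (adjusted p = 0.000282, 0.0122 and 0.0294). Gsta1 had 6.00, 6.43 and 6.35 CPM in ACR cells and 0.149, 0.571 and 0 CPM in PBS cells and Gsta2 had 4.00, 5.22 and 6.11 CPM in ACR cells and 0.448, 0.999 and 0.231 CPM in PBS cells. Their PBS libraries held so few counts that the fitted log2 fold changes (4.40 ± 0.54 and 3.04 ± 0.48) depend on the prior count. Reads of Gstp1 and Gstp2, or of the Gsta genes, can be split between near-identical copies, so their separate values are uncertain. Mgst1 and Gstm2 lost their calls without ACR 1, PBS 1 or PBS 2, and Gstm2 also without ACR 2 (highest adjusted p 0.08 and 0.173).

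**Figure D2:**
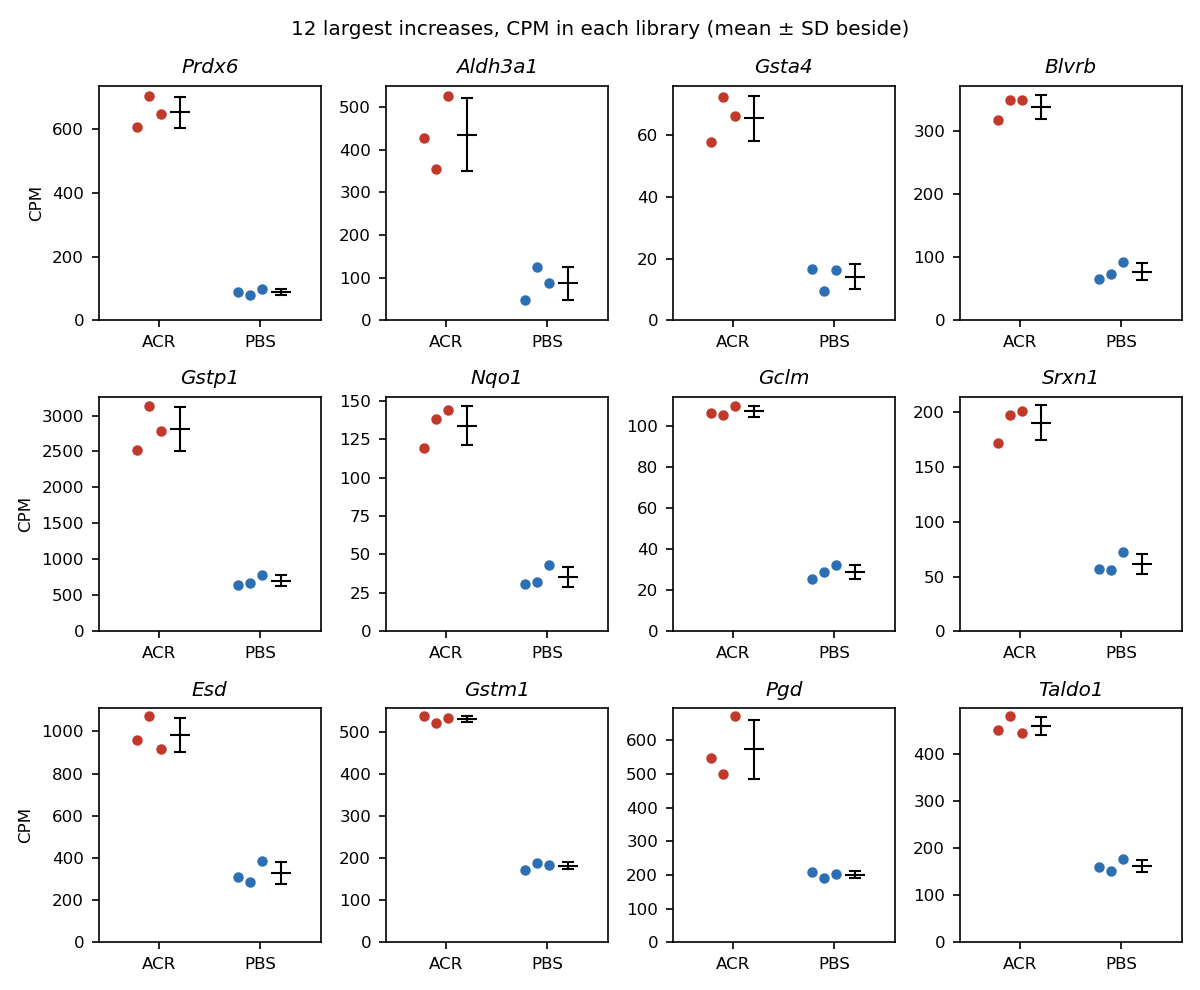
Points are the CPM of each library (y axes from 0) for the 12 largest increases among called genes with at least 20 CPM in ACR cells, ACR libraries in red on the left and PBS libraries in blue on the right, with the mean and SD of 3 libraries beside them. In every panel the lowest ACR library is above the highest PBS library, because only genes without overlap were taken. Aldh3a1 shows the widest spread relative to its mean, in PBS cells.

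Peroxide and superoxide removal had 27 tested genes, 6 higher and 1 lower, with a median of 0.35. Prdx6, a peroxiredoxin that reduces phospholipid hydroperoxides with glutathione, had 606, 705 and 649 CPM in ACR cells and 88.5, 80.8 and 98.8 CPM in PBS cells. With 654 ± 49.6 CPM in ACR cells against 89.3 ± 9.01 CPM in PBS cells (SD, n = 3 each), its 7.32-fold increase was the largest among called genes with at least 20 CPM in 1 group (2.87 ± 0.20, adjusted p = 2.21e-06). Sulfiredoxin (Srxn1), which repairs overoxidised peroxiredoxins, had 172, 197 and 201 CPM in ACR cells and 56.7, 55.7 and 72.5 CPM in PBS cells (1.63 ± 0.18, adjusted p = 9.18e-05). Thioredoxin reductase 1 (Txnrd1) had 177, 167 and 166 CPM in ACR cells and 73.7, 67.4 and 77.5 CPM in PBS cells (1.22 ± 0.16, adjusted p = 0.00049). Neither gene showed a wide spread in either group. Prdx1 rose 1.99-fold, catalase (Cat) 1.61-fold and mitochondrial Prdx3 1.56-fold (adjusted p = 0.0137, 0.0282 and 0.0446). Each lost its call without ACR 1 or PBS 1 and in at least 1 more fit that left out a library, with adjusted p-values up to 0.0899, 0.165 and 0.212. The lower gene was Txnip, which binds and inhibits thioredoxin, at 111, 95.4 and 119 CPM in ACR cells and 195, 175 and 179 CPM in PBS cells (-0.76 ± 0.17, adjusted p = 0.0238). It lost its call without ACR 1, ACR 2, PBS 1 or PBS 2 (adjusted p up to 0.144). Superoxide dismutase 1 (Sod1) had 421 CPM in ACR cells and 249.8 CPM in PBS cells (adjusted p = 0.0683) and Gpx4 had 564 CPM in ACR cells and 403 CPM in PBS cells (adjusted p = 0.203), and neither passed the test.

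Quinone, carbonyl and epoxide metabolism had 32 tested genes, of which 8 were higher and 0 lower, with a median of 0.24. Aldh3a1, an aldehyde dehydrogenase, had 426, 354 and 525 CPM in ACR cells and 47.9, 126 and 87.2 CPM in PBS cells. Both groups were spread widely, and PBS 1 was the lowest library, but the groups did not overlap (2.32 ± 0.29, adjusted p = 0.000282). The quinone reductase Nqo1 had 119, 138 and 144 CPM in ACR cells and 30.7, 32.4 and 42.9 CPM in PBS cells, a 3.80-fold increase (1.93 ± 0.18, adjusted p = 2.3e-05). Esd, which completes the glutathione-dependent removal of formaldehyde, had 957, 1071 and 917 CPM in ACR cells and 310.2, 288 and 388 CPM in PBS cells (1.58 ± 0.20, adjusted p = 0.000374). The carbonyl reductase Cbr3 rose 2.47-fold and the epoxide hydrolase Ephx1, an enzyme that opens epoxides, 2.25-fold (adjusted p = 0.000355 and 0.0176). Hagh, Adh7 and Cbr1 rose 1.69-, 1.64- and 1.54-fold (adjusted p = 0.0133, 0.0279 and 0.0473). Ephx1, Hagh, Adh7 and Cbr1 were each lost in 2 or more fits that left out a library, that without ACR 1 among them (adjusted p up to 0.0846, 0.109, 0.128 and 0.206).

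NADPH, which feeds these reductases, is made in part by the pentose phosphate pathway. Of 17 tested genes of the pathway and of NADPH supply 2 were higher and 2 lower, and the median was 0.01. Phosphogluconate dehydrogenase (Pgd) had 547, 500.3 and 672 CPM in ACR cells and 210.1, 191 and 203 CPM in PBS cells, a 2.85-fold increase (1.51 ± 0.20, adjusted p = 0.000382). Transaldolase (Taldo1) had 453, 482 and 445 CPM in ACR cells and 161, 152 and 177 CPM in PBS cells, a 2.82-fold increase (1.50 ± 0.18, adjusted p = 0.000281). Other NADPH enzymes did not pass the test. Malic enzyme 1 (Me1) had 44.0 CPM in ACR cells and 29.4 CPM in PBS cells, with no overlap between libraries (adjusted p = 0.0582), and G6pdx, the entry enzyme of the pathway, had 39.0 CPM in ACR cells and 28.7 CPM in PBS cells (adjusted p = 0.175). The 2 lower genes, Aldh1l2 (-0.88 ± 0.19, adjusted p = 0.0182) and Idh2 (-0.69 ± 0.17, adjusted p = 0.0359), encode mitochondrial NADPH-forming enzymes. Both lost their calls without ACR 1, PBS 1 or PBS 2, and Idh2 also without ACR 2 or PBS 3 (adjusted p up to 0.0907 and 0.142).

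Haem breakdown and iron storage had 17 tested genes, 4 higher and 0 lower, with a median of 0.19. Biliverdin reductase B (Blvrb) had 317, 349 and 349.7 CPM in ACR cells and 65.2, 74.2 and 92.5 CPM in PBS cells, a 4.39-fold increase (2.13 ± 0.19, adjusted p = 2.04e-05). The ferritin light chain gene Ftl1 had 5034, 5799 and 5450.0 CPM in ACR cells and 1985, 1987 and 2113 CPM in PBS cells and the heavy chain gene Fth1 3476, 3835 and 3701 CPM in ACR cells and 1498, 1627 and 1623 CPM in PBS cells. The 2 subunits of the iron store rose together, 2.68-fold and 2.32-fold, with small spread (adjusted p = 0.000814 and 0.00251). Ftl1 has near-identical copies in the genome, so its value is uncertain. Pir rose 2.72-fold (adjusted p = 0.000478). Haem oxygenase 1 (Hmox1), a classical stress gene of the same pathway, had 131, 151 and 163 CPM in ACR cells and 102, 108 and 108 CPM in PBS cells. Its libraries did not overlap, but its difference of 0.49 ± 0.17 did not pass the test (adjusted p = 0.144).

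The transcripts of the regulators gave a single call. Among 14 tested genes for NRF2 and its regulators only Sqstm1 was called. Sqstm1, the autophagy receptor that binds KEAP1, had 336, 299 and 351 CPM in ACR cells and 207, 204 and 182 CPM in PBS cells (0.73 ± 0.18, adjusted p = 0.038). Leaving out ACR 1, PBS 1, PBS 2 or PBS 3 ended that call (adjusted p up to 0.194). Nfe2l2 had 62.2, 71.1 and 59.7 CPM in ACR cells and 58.0, 57.1 and 70.1 CPM in PBS cells and overlapped between groups (0.06 ± 0.16, adjusted p = 0.899). Keap1 had 219.9, 210.1 and 245 CPM in ACR cells and 219, 228 and 162 CPM in PBS cells and also overlapped (0.15 ± 0.19, adjusted p = 0.779). The small MAF partner Mafg had 51.0, 43.0 and 47.2 CPM in ACR cells and 29.5, 27.7 and 36.5 CPM in PBS cells. Its groups did not overlap, but it was not called (0.60 ± 0.17, adjusted p = 0.0685). Bach1, a repressor of the same elements, had 571 CPM in ACR cells and 637 CPM in PBS cells (adjusted p = 0.766).

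Other stress pathways gave calls in some lists and none in others, while 3.05% of all genes tested were called. Of 33 tested ATF4 targets and amino acid genes 2 were higher, Slc7a11 and the stress cytokine Gdf15 (242, 246 and 278 CPM in ACR cells and 127, 167 and 159 CPM in PBS cells), and Pycr1 of proline synthesis was lower (-1.28 ± 0.23, adjusted p = 0.00408). Gdf15 was lost without ACR 1, PBS 1, PBS 2 or PBS 3 (adjusted p up to 0.24). None of 21 endoplasmic reticulum chaperones was called by edgeR, DESeq2 or limma-voom, and 0 had an unadjusted p below 0.05. Of 26 cytosolic heat shock genes 1 was called, Hspb1 (0.71 ± 0.17, adjusted p = 0.0313), and it was lost in all 6 fits that left out a library (adjusted p up to 0.1). The list's median was 0.27. Of 27 p53 targets 0 were called by edgeR and limma-voom and 2 were lower by DESeq2, with 1 above and 4 below 0 at an unadjusted p below 0.05. Cdkn1a, the p53-induced cell cycle inhibitor, had 151, 166 and 114 CPM in ACR cells and 189, 290.0 and 224 CPM in PBS cells (adjusted p = 0.0854). Of 28 genes of the Bcl2 family and caspases 0 were called by the 3 tools and 4 had an unadjusted p below 0.05, 2 in each direction.

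The proteasome subunits are a case of many small differences. None of 35 was called by edgeR or limma-voom and 1 was higher by DESeq2, but 16 had an unadjusted p below 0.05, all above 0. Of the 35 subunits 34 had a log2 fold change above 0, with a median of 0.35, and 21 had every ACR library above every PBS library, against 10.9% of all genes. Their summed level was 5846 to 7380.5 CPM in ACR libraries and 4601 to 5461 CPM in PBS libraries. Psmb5, a catalytic subunit, had 360.4, 505 and 415 CPM in ACR cells and 278, 255 and 331 CPM in PBS cells (adjusted p = 0.16). Like Psmb3 and Psmb1, it was highest in ACR 2 and PBS 3, the libraries with the highest ribosomal protein shares of their groups. Subunits that vary together across libraries are not separate observations. The related list of immunoproteasome and MHC class I genes gave 3 higher of 18 tested. Psmb10, a catalytic immunoproteasome subunit, had 41.5, 44.6 and 40.7 CPM in ACR cells and 20.4, 21.0 and 23.5 CPM in PBS cells (0.97 ± 0.16, adjusted p = 0.0026), and the peptide-loading gene Tapbpl and the activator gene Psme1 rose 1.76-fold and 1.51-fold (adjusted p = 0.0355 and 0.0439). Tapbpl was lost without ACR 1, PBS 1 or PBS 3, and Psme1 without any library but ACR 3 (adjusted p up to 0.202 and 0.197).

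Some lipid genes were called, and these were higher. Cholesterol synthesis and uptake had 28 tested genes, 7 higher and 0 lower, with the highest median of the lists drawn below, 0.46. The summed level of the list overlapped between groups, at 2738 to 3317 CPM in ACR libraries and 2627 to 3529 CPM in PBS libraries. Mvd, mevalonate diphosphate decarboxylase, had 21.99, 22.7 and 27.7 CPM in ACR cells and 10.0, 12.3 and 11.3 CPM in PBS cells (1.11 ± 0.19, adjusted p = 0.00345). Cyp51, lanosterol demethylase, had 48.0, 47.2 and 45.4 CPM in ACR cells and 24.2, 20.8 and 28.4 CPM in PBS cells (0.95 ± 0.17, adjusted p = 0.00412). Acat2, which joins acetyl units at the start of the pathway, had 64.5, 61.9 and 71.5 CPM in ACR cells and 37.9, 32.5 and 38.8 CPM in PBS cells (0.86 ± 0.16, adjusted p = 0.00571). These 3 were called in all 17 alternative fits. Abcg1, Pmvk, Msmo1 and Idi1 rose 1.86-, 1.76-, 1.65- and 1.63-fold (adjusted p = 0.0406, 0.0275, 0.0399 and 0.0436). Each of them was lost in 4 or 5 of the 6 fits that left out a library, those without ACR 1 and PBS 2 among them (adjusted p up to 0.193, 0.137, 0.185 and 0.181). The letters TCACNCCAC of a sterol response element were in 0 of the 6 called genes with a promoter sequence. They were in 1.44% of all genes with such a sequence and in 1.24% of all promoter sequences. Letters this rare would seldom be met in 6 genes, so nothing is read from their absence. Of 22 tested fatty acid genes 2 were higher: fatty acid synthase (Fasn) had 1279.8, 1047 and 1549 CPM in ACR cells and 562, 683 and 702 CPM in PBS cells (0.99 ± 0.21, adjusted p = 0.0166), and Acss2, which activates acetate, rose 2.43-fold (adjusted p = 0.0032). Fasn was lost without ACR 1, PBS 1 or PBS 2 (adjusted p up to 0.149). Star, which carries cholesterol into mitochondria, had 18.0, 19.3 and 19.3 CPM in ACR cells and 6.57, 6.42 and 10.4 CPM in PBS cells (1.31 ± 0.22, adjusted p = 0.0032). Gbe1, the glycogen branching enzyme, had 16.2, 18.1 and 15.3 CPM in ACR cells and 2.83, 3.85 and 4.38 CPM in PBS cells, a 4.54-fold increase (2.18 ± 0.24, adjusted p = 0.000104).

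**Figure D3:**
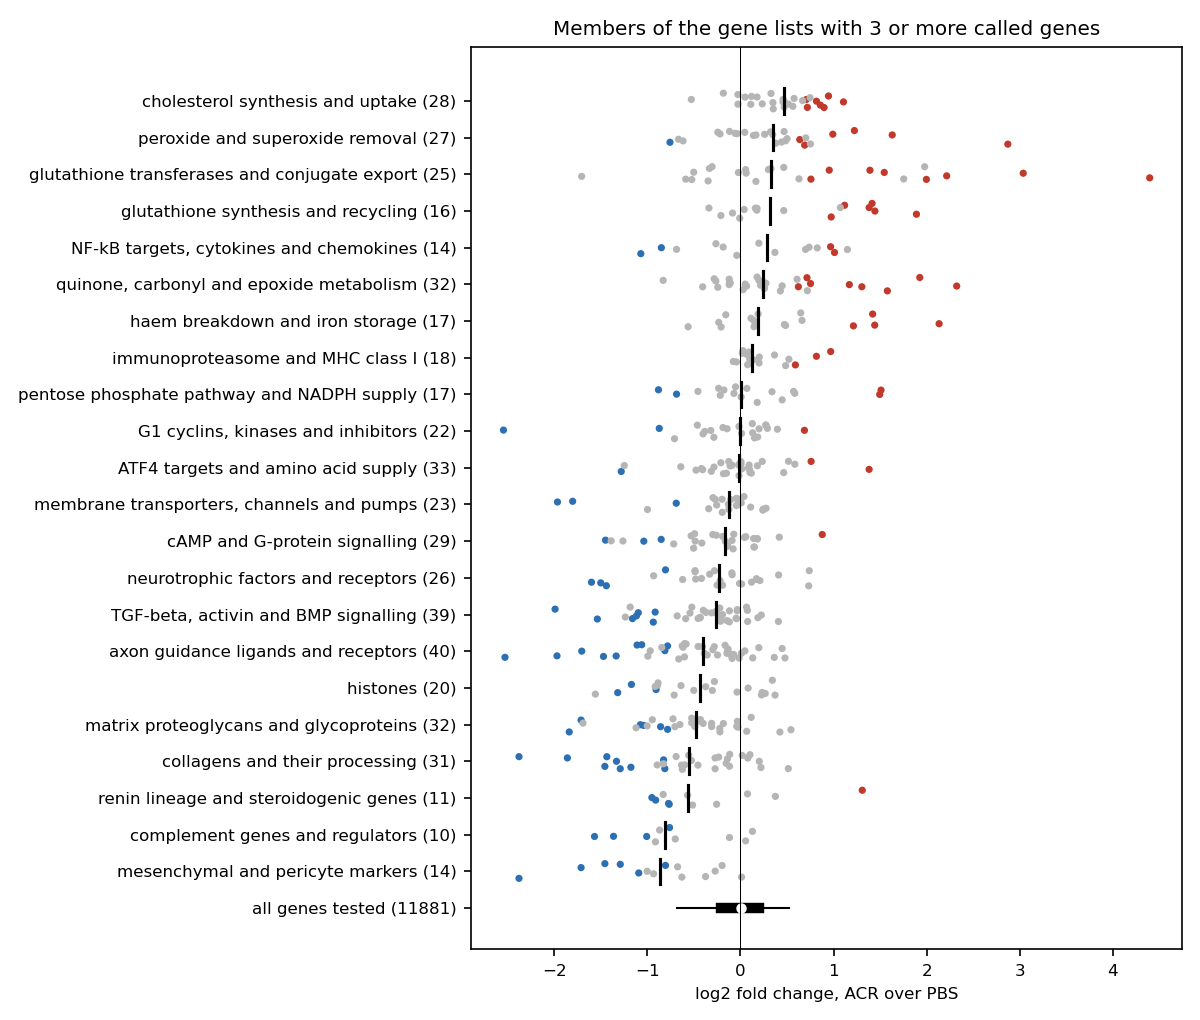
Each point is the log2 fold change, ACR over PBS (x axis), of a tested member of the 22 gene lists with 3 or more called genes, red where called higher, blue where called lower and grey where not called, with the list median as a black tick and the number tested in brackets. The bottom line gives all 11881 genes as the range from the 5th to the 95th percentile (-0.68 to 0.52), the quartiles (-0.21 to 0.20) and the median. Lists are ordered by median, from cholesterol synthesis (0.46) to mesenchymal markers (-0.87).

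Among called genes with at least 20 CPM in 1 group, the largest decrease was that of Ccnd1, which encodes cyclin D1, the cyclin that carries growth signals into G1. It had 7.50, 12.1 and 9.40 CPM in ACR cells and 58.8, 53.8 and 58.4 CPM in PBS cells, a 5.84-fold decrease with narrow spread in both groups (-2.55 ± 0.19, adjusted p = 3.65e-06). Ccnd2 fell as well, at 74.5, 86.4 and 86.0 CPM in ACR cells and 181, 138 and 133 CPM in PBS cells (-0.87 ± 0.18, adjusted p = 0.0122), and Cdk2 was higher (0.69 ± 0.16, adjusted p = 0.0313). Those were the 3 calls among 22 tested G1 genes. Leaving out ACR 1 or PBS 1 ended the call of Ccnd2, and leaving out PBS 2 too that of Cdk2 (adjusted p up to 0.123 and 0.181). Of 40 genes of DNA replication and mitosis 0 were called by edgeR and limma-voom and 1 was lower by DESeq2, with a median of -0.15 and an unadjusted p below 0.05 for 2 above and 8 below 0. Of 20 tested histone genes 3 were lower and 0 higher, with a median of -0.44. RNA was captured by poly(A), so histone transcripts without a poly(A) tail are largely missed here. H1f0, the linker histone of non-dividing cells, had 859, 744 and 1331 CPM in ACR cells and 2565, 2807 and 1941 CPM in PBS cells (-1.32 ± 0.25, adjusted p = 0.00691). Hist1h2ao (-1.17 ± 0.27) and Hist1h2ap (-0.91 ± 0.23) have near-identical copies, so their values are uncertain. Leaving out ACR 1 ended all 3 histone calls (adjusted p up to 0.0865, 0.106 and 0.128), and leaving out any PBS library ended those of both Hist1h2a genes.

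Among genes of the extracellular matrix a minority passed the test, and those that did were lower. In these bulk samples, fewer cells of a type and less RNA per cell cannot be told apart. Of 31 tested collagens and processing genes 9 were lower and 0 higher, with a median of -0.56, where 1.99% of all genes tested were called lower. Col3a1 of fibrillar collagen had 4.498, 5.02 and 5.17 CPM in ACR cells and 15.8, 38.8 and 21.7 CPM in PBS cells, with the 3 ACR libraries close together and PBS 2 well above the other PBS libraries (-2.38 ± 0.32, adjusted p = 0.000478). Col1a2, whose values are given above, fell 2.74-fold (-1.46 ± 0.23, adjusted p = 0.00188) and its partner chain Col1a1 2.45-fold (-1.29 ± 0.18, adjusted p = 0.000674). Col6a2 had 11.5, 7.83 and 9.87 CPM in ACR cells and 31.2, 39.3 and 34.8 CPM in PBS cells (-1.86 ± 0.20, adjusted p = 7.02e-05). Serpinh1, the collagen chaperone, had 8227, 6549.5 and 9657 CPM in ACR cells and 13802, 15215 and 10424 CPM in PBS cells. Its groups did not overlap, but its difference did not pass the test (-0.69 ± 0.23, adjusted p = 0.136). Col1a2 lost its call with all 15 libraries in the fit (adjusted p = 0.0539). Both genes had their lowest level within the ACR group in ACR 2 and their highest level within the PBS group in PBS 2.

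Matrix proteoglycans and glycoproteins gave 6 lower of 32 tested, with a median of -0.48. Versican (Vcan), a large proteoglycan, had 28.5, 22.5 and 25.1 CPM in ACR cells and 102, 72.4 and 97.6 CPM in PBS cells, a 3.58-fold decrease (-1.84 ± 0.18, adjusted p = 3.94e-05). Smoc1, a calcium-binding matrix protein, had 9.00, 6.23 and 15.7 CPM in ACR cells and 37.0, 43.4 and 27.9 CPM in PBS cells (-1.83 ± 0.27, adjusted p = 0.0011). Fibronectin (Fn1) had 137, 123 and 159.8 CPM in ACR cells and 191, 235 and 234 CPM in PBS cells and did not pass the test (-0.65 ± 0.18, adjusted p = 0.0707). Among 19 metalloproteases and inhibitors 2 were lower. The aggrecan-cleaving protease gene Adamts1 had 78.7, 66.9 and 119.6 CPM in ACR cells and 248, 324 and 261 CPM in PBS cells (-1.65 ± 0.22, adjusted p = 0.000567), and the inhibitor gene Timp3 fell 5.15-fold at a low level of 1.50 CPM in ACR cells and 7.87 CPM in PBS cells (adjusted p = 0.00159). Cd248, a surface protein of stromal cells and pericytes, had 13.7, 12.9 and 12.2 CPM in ACR cells and 36.4, 49.4 and 41.3 CPM in PBS cells (-1.71 ± 0.18, adjusted p = 7.22e-05). It was one of 6 lower genes among 14 tested mesenchymal and pericyte markers, whose median was -0.87. The summed level of that list was 986 to 1271 CPM in ACR libraries and 2129 to 2608 CPM in PBS libraries. The mean sums were 1113 CPM in ACR cells and 2356 CPM in PBS cells, of which Col1a2 alone gave 577 CPM and 1582 CPM. Of the 20 members of the list in the table Des and Meox1 had no count in any library.

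**Figure D4:**
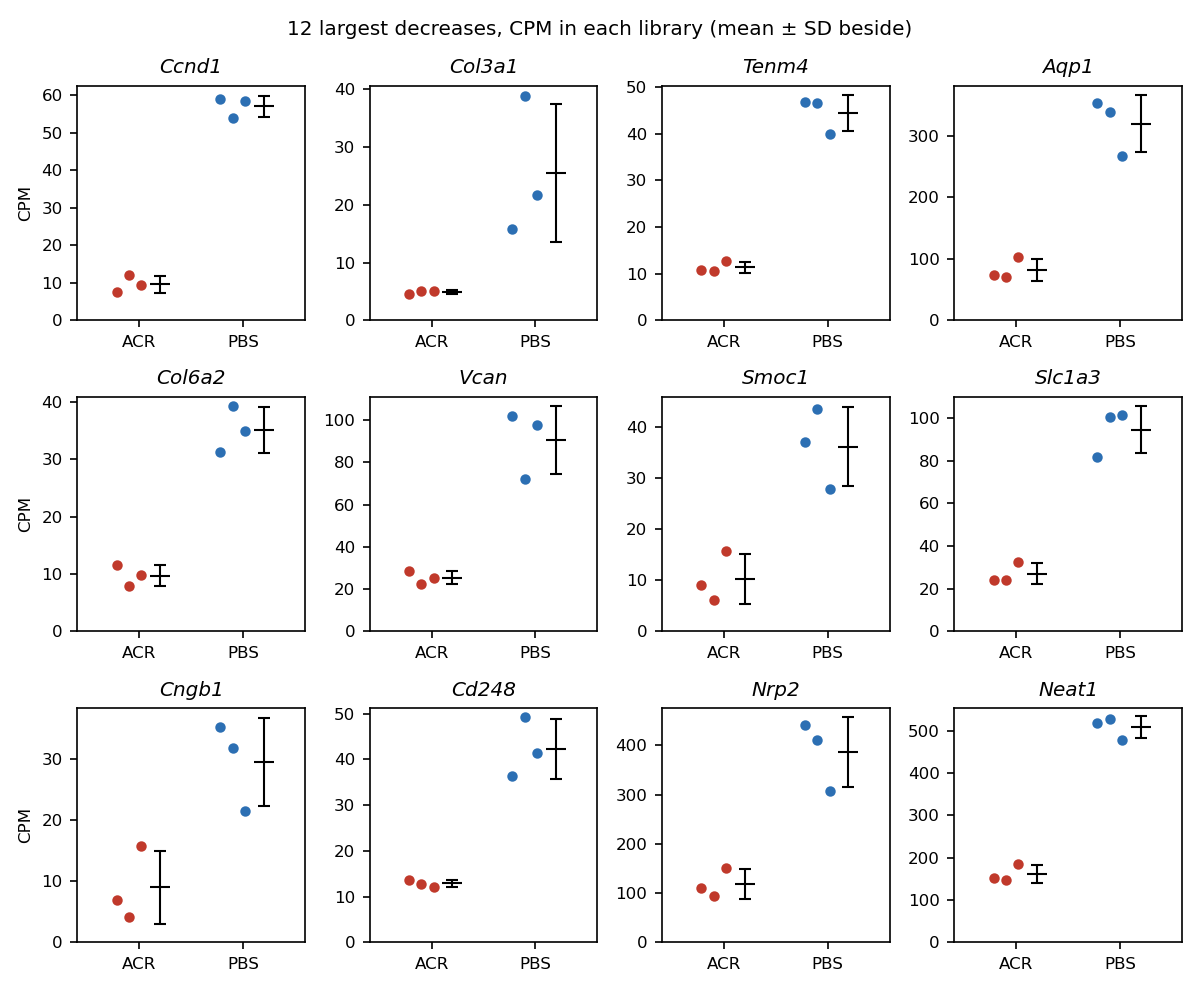
Points are the CPM of each library (y axes from 0) for the 12 largest decreases among called genes with at least 20 CPM in PBS cells, ACR libraries in red on the left and PBS libraries in blue on the right, with the mean and SD of 3 libraries beside them. In every panel the highest ACR library is below the lowest PBS library, because only genes without overlap were taken. Cngb1 has the widest relative spread in ACR cells.

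Secreted factors of the transforming growth factor family and their inhibitors fell in part. Of 39 tested genes of TGF-beta, activin and BMP signalling 7 were lower and 0 higher, with a median of -0.26. Inhbb, the activin B subunit, had 41.7, 34.5 and 64.4 CPM in ACR cells and 130.1, 147 and 131 CPM in PBS cells (-1.54 ± 0.21, adjusted p = 0.000567). Inhba, the activin A subunit, had 12.5, 20.7 and 13.4 CPM in ACR cells and 35.5, 34.3 and 35.3 CPM in PBS cells (-1.16 ± 0.20, adjusted p = 0.00326). Bmp4, a BMP ligand, fell 2.14-fold, and the BMP antagonists Grem1 and Chrd fell 3.97-fold and 1.91-fold (adjusted p = 0.0215, 0.00705 and 0.0268). The BMP target Id2 fell 2.17-fold and the pathway inhibitor Smad7 1.89-fold (adjusted p = 0.00412 and 0.0268). Bmp4, Chrd and Smad7 were each lost in 4 fits that left out a library, ACR 1, ACR 2 and PBS 1 among them (adjusted p up to 0.0981, 0.157 and 0.16), and Grem1 without PBS 2 (0.053). Of 24 immediate early genes Jun and Klf4 were lower. Jun, an AP-1 subunit, had 30.5, 23.7 and 30.3 CPM in ACR cells and 59.1, 72.9 and 52.4 CPM in PBS cells (-1.13 ± 0.18, adjusted p = 0.00207), and Klf4 had 59.2, 60.1 and 56.4 CPM in ACR cells and 109.7, 112 and 116 CPM in PBS cells (-0.94 ± 0.15, adjusted p = 0.00251).

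Axon guidance genes gave calls in 1 direction. Of 40 tested ligands and receptors 9 fell and 0 rose, where 1.99% of all genes tested were called lower. The list had a median of -0.40 and a log2 fold change below 0 for 33. Among the ligands, Slit2, which repels axons through ROBO receptors, had 0.25, 2.41 and 2.12 CPM in ACR cells and 10.0, 8.99 and 9.92 CPM in PBS cells (-2.53 ± 0.40, adjusted p = 0.00217). Its ACR 1 value rests on a single read, so the size of the fold change depends on few counts. Sema3c had 174, 187 and 156 CPM in ACR cells and 363, 359.7 and 395 CPM in PBS cells (-1.11 ± 0.18, adjusted p = 0.00251), and Sema3a fell 2.77-fold (adjusted p = 0.0056). The membrane-bound ligand Efnb2 fell 1.75-fold (adjusted p = 0.045). Among the receptors, Nrp2, a co-receptor for semaphorins, had 111, 93.6 and 151 CPM in ACR cells and 442, 410.1 and 306 CPM in PBS cells (-1.704 ± 0.22, adjusted p = 0.000406). Tenm4, a teneurin that guides nerve connections, had 10.7, 10.6 and 12.7 CPM in ACR cells and 46.9, 46.5 and 39.9 CPM in PBS cells (-1.97 ± 0.18, adjusted p = 2.04e-05). Ephb2 and Plxnb1 fell 2.09-fold and 1.72-fold (adjusted p = 0.0105 and 0.0182), and Dpysl3, which relays semaphorin signals to the cytoskeleton, 2.52-fold (adjusted p = 0.00928). Efnb2 and Ephb2 were lost without ACR 1, PBS 1 or PBS 2, Efnb2 also without ACR 2, Plxnb1 without ACR 1 or PBS 1 and Dpysl3 without PBS 1 (adjusted p up to 0.198, 0.0567, 0.121 and 0.0508).

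Neurotrophic factors and receptors gave 4 lower and 0 higher of 26 tested, with a median of -0.23. Gfra1, the GDNF co-receptor, had 29.2, 22.9 and 36.7 CPM in ACR cells and 94.3, 104 and 69.2 CPM in PBS cells (-1.60 ± 0.20, adjusted p = 0.000352). Hepatocyte growth factor (Hgf), a ligand of the MET receptor, had 10.2, 11.05 and 8.93 CPM in ACR cells and 29.4, 28.3 and 28.2 CPM in PBS cells (-1.50 ± 0.18, adjusted p = 0.000265). Pleiotrophin (Ptn), a heparin-binding growth factor, had 42.7, 44.6 and 35.5 CPM in ACR cells and 95.3, 113 and 126 CPM in PBS cells (-1.44 ± 0.17, adjusted p = 0.000236). All 3 genes kept their calls in every fit that left out a library. Pdgfra fell 1.75-fold (adjusted p = 0.0436) and was lost without ACR 1, ACR 2, PBS 1 or PBS 3 (adjusted p up to 0.252).

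The 2 lists of neuronal identity gave few calls and hold too few tested genes for a difference between them to be read. Of all genes tested 1.99% were called lower and 1.06% higher. Of 9 tested noradrenergic genes 0 were called by edgeR, DESeq2 or limma-voom, and 1 had an unadjusted p below 0.05. Maoa, which degrades noradrenaline, had 26.0, 24.3 and 24.7 CPM in ACR cells and 22.8, 20.1 and 28.4 CPM in PBS cells (0.08 ± 0.18, adjusted p = 0.881). Of 17 tested cytoskeletal and synaptic genes 2 were lower, Dpysl3 and the synaptic vesicle gene Vamp2, at 60.5, 57.2 and 57.8 CPM in ACR cells and 94.5, 103 and 90.9 CPM in PBS cells (-0.72 ± 0.15, adjusted p = 0.0166). Vamp2 was lost without ACR 1, PBS 1 or PBS 2 (adjusted p up to 0.105). Of 34 tubulin, kinesin and dynein genes 1 was higher, Tubb2a (0.68 ± 0.17, adjusted p = 0.0352), lost in all fits that left out a library except that without PBS 3 (adjusted p up to 0.192).

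Several membrane proteins were lower. Aqp1, a water channel, had 73.0, 70.3 and 102 CPM in ACR cells and 354, 338 and 267 CPM in PBS cells, a 3.90-fold decrease (-1.97 ± 0.21, adjusted p = 7.02e-05). Slc1a3, a glutamate transporter best known in astrocytes, had 24.2, 24.3 and 32.7 CPM in ACR cells and 81.6, 100.5 and 101 CPM in PBS cells (-1.80 ± 0.18, adjusted p = 3.94e-05). It and glutamine synthetase (Glul, -0.76 ± 0.18, adjusted p = 0.0346) were the lower genes among 5 tested astrocyte markers, of 11 in the table. The beta-1 adrenergic receptor gene Adrb1 had 21.5, 20.1 and 19.3 CPM in ACR cells and 58.9, 67.2 and 42.2 CPM in PBS cells (-1.48 ± 0.19, adjusted p = 0.000374), and Cngb1, a cyclic nucleotide-gated channel subunit, had 6.998, 4.22 and 15.7 CPM in ACR cells and 35.2, 31.7 and 21.5 CPM in PBS cells (-1.74 ± 0.33, adjusted p = 0.00684). Its ACR 3 value was more than 2 times that of the other ACR libraries. Cngb1 was lost without ACR 1 (adjusted p = 0.0517), Glul without ACR 1, ACR 2, PBS 1 or PBS 2 (adjusted p up to 0.18), and Adrb1 with all 15 libraries in the fit (adjusted p = 0.113). The nuclear long noncoding RNA Neat1 had 153, 147 and 185 CPM in ACR cells and 518, 527 and 478 CPM in PBS cells, a 3.14-fold decrease (-1.65 ± 0.19, adjusted p = 0.000167).

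Immune genes split in direction. Of 14 tested NF-kB targets and cytokines 2 were higher, the monocyte chemokines Ccl2 (39.7, 37.0 and 27.3 CPM in ACR cells and 20.3, 15.3 and 17.5 CPM in PBS cells) and Ccl7 (27.5, 38.4 and 16.5 CPM in ACR cells and 13.7, 14.8 and 12.2 CPM in PBS cells), and 2 were lower, Il33 (-1.07 ± 0.19, adjusted p = 0.00467) and Cxcl12 (-0.85 ± 0.19, adjusted p = 0.0201). Ccl7 varied more than 2-fold among ACR libraries, with ACR 3 lowest. Of 21 tested interferon-stimulated genes the transcription factor gene Irf1 (0.88 ± 0.16, adjusted p = 0.00457) and the tethering factor gene Bst2 (0.83 ± 0.18, adjusted p = 0.0166) were higher. Complement genes gave 4 lower and 0 higher of 10 tested, with a median of -0.81. Cd55, a surface inhibitor of complement, had 149, 150.2 and 142 CPM in ACR cells and 287, 283 and 316 CPM in PBS cells (-1.01 ± 0.17, adjusted p = 0.00371), and the protease genes Masp1 and C1ra fell 2.57-fold and 1.69-fold (adjusted p = 0.011 and 0.0175). The summed level of the 20 microglia markers in the table was 77.3 to 87.4 CPM in ACR libraries and 60.9 to 69.7 CPM in PBS libraries, and none of 5 tested was called by edgeR, DESeq2 or limma-voom (1 with an unadjusted p below 0.05). Their part in the immune gene differences was not tested. Ccl2, Ccl7, Cxcl12, Bst2, Cd55, Masp1 and C1ra were lost in 1 to 5 fits that left out a library, and without ACR 1 in every case but Masp1, which was lost without PBS 1 (adjusted p up to 0.0778, 0.148, 0.16, 0.139, 0.0503, 0.08 and 0.148).

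Genes of the renin lineage and of steroid synthesis, which mark endocrine mesenchyme, gave 1 higher and 4 lower of 11 tested, with a median of -0.57. Ren1, the renin gene, had 30.0, 24.9 and 39.0 CPM in ACR cells and 53.7, 69.2 and 58.1 CPM in PBS cells (-0.95 ± 0.19, adjusted p = 0.00928), and Ren2 fell 1.71-fold (adjusted p = 0.0335). Reads of Ren1 and Ren2 can be split between near-identical copies, so their separate values are uncertain. Etnk2 fell 1.88-fold and Rin1 1.699-fold (adjusted p = 0.00708 and 0.0273). The higher gene was Star, given above. All of Ren1, Ren2 and Rin1 were lost without ACR 1 (adjusted p up to 0.0736, 0.16 and 0.153 over the fits that left out a library).

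Of 29 tested genes of cAMP and G-protein signalling, the pathway that dibutyryl cAMP drives during differentiation, 1 was higher and 3 were lower, with a median of -0.16. Of these 4, 3 are regulators of G-protein signalling, which switch G proteins off. Rgs10 had 59.7, 72.5 and 59.0 CPM in ACR cells and 35.2, 28.5 and 40.8 CPM in PBS cells (0.88 ± 0.17, adjusted p = 0.0102), while Rgs2 fell 1.80-fold and Rgs3 2.73-fold (adjusted p = 0.0126 and 0.0335). The membrane-bound factor gene Creb3l1 had 159, 131 and 232 CPM in ACR cells and 301, 464 and 307 CPM in PBS cells (-1.04 ± 0.24, adjusted p = 0.0271). Rgs10 was lost without PBS 1 or PBS 2, and Rgs2, Rgs3 and Creb3l1 without ACR 1 and in 1 to 3 more such fits (adjusted p up to 0.0628, 0.099, 0.163 and 0.165).

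Among the remaining lists, Wnt4, a Wnt ligand, fell 1.80-fold as the 1 call of 22 tested Wnt genes (adjusted p = 0.0152), and the sialidase gene Neu1 fell 2.16-fold as the 1 call of 37 lysosomal genes (adjusted p = 0.00243). Of 37 tested genes of glycolysis, glycogen and hypoxia, Gbe1 was higher and Pdk1, which inhibits pyruvate dehydrogenase, had 53.7, 48.0 and 57.6 CPM in ACR cells and 136, 125 and 91.8 CPM in PBS cells (-1.15 ± 0.18, adjusted p = 0.00193). Mt1, a metal-binding metallothionein, rose 1.91-fold as the 1 call of 16 genes of metal handling (adjusted p = 0.0206). The electron carrier gene Cyb5a rose 1.77-fold as the 1 call of 9 tested genes listed for the aryl hydrocarbon receptor battery and cytochromes P450 (adjusted p = 0.0212). That list leaves out Nqo1, Aldh3a1 and Gsta1, which are counted with the redox genes above, so its count is no measure of the whole battery. Wnt4, Mt1 and Cyb5a were each lost without ACR 1, PBS 1 or PBS 2 (adjusted p up to 0.1, 0.139 and 0.111), and Neu1 with all 15 libraries in the fit (adjusted p = 0.0502). Of 17 serum response and YAP target genes 0 were called by edgeR and limma-voom and 1 was lower by DESeq2, with 2 at an unadjusted p below 0.05.

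Transcripts of the mitochondrial genome, the respiratory chain and the ribosome served as a view of energy and translation genes. None of 13 mitochondrially encoded, 45 nuclear-encoded respiratory chain and 51 ribosomal protein genes was called by edgeR, DESeq2 or limma-voom, with 0, 2 and 1 of them at an unadjusted p below 0.05. Their medians were -0.07, 0.15 and 0.03. The summed level of the ribosomal protein genes varied more among ACR libraries (41079 to 63632 CPM) than among PBS libraries (45831 to 54129 CPM).

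The same dose in medium conditioned by BV2 cells gave a like direction for most of these genes. PBS-CM+ACR and PBS-CM share no library with the direct comparison. The labels give DMEM for 1C11 cells and DMEM/F12 for BV2 cells, so conditioning and base medium cannot be told apart in this contrast. Of their 6 libraries 2 stand apart, PBS-CM 1 and PBS-CM+ACR 3, with ribosomal protein shares of 7.56 and 8.45% against 11.5 to 14.4% in the other 4. Of the 126 genes higher in ACR cells 118 (93.7%) were above 0 in conditioned medium, with a median log2 fold change of 0.54 there against 0.93 without it, and 14 were called higher. Of the 236 lower genes 11 (4.66%) were above 0, with a median of -0.68 against -1.02, and 8 were called lower. Both sets were chosen by their direct values, which alone makes a smaller median in other libraries likely. No weaker response in conditioned medium is read from these medians. Of all genes 48.5% were above 0. Srxn1 had 142, 163 and 142 CPM in PBS-CM+ACR and 46.0, 44.6 and 59.1 CPM in PBS-CM, and Neat1 had 188, 199.8 and 218 CPM in PBS-CM+ACR and 569.8, 530.2 and 505 CPM in PBS-CM. Prdx6 had 330.0, 378 and 288 CPM in PBS-CM+ACR and 107, 130.4 and 152 CPM in PBS-CM, a log2 fold change of 1.35 ± 0.21 against 2.86 ± 0.22 without conditioned medium in the same fit. Its difference of 1.51 ± 0.29 did not pass the test over all genes (adjusted p = 0.593). Of 12297 genes tested for such a difference by edgeR 0 were called (0%) and 314 had an unadjusted p below 0.05. DESeq2 called 1 gene with a larger and 2 with a smaller log2 fold change without conditioned medium, limma-voom called 0, and edgeR without both libraries that stand apart called 1 and 1.

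BV2 cells given the same dose were compared gene by gene. Of the 126 genes higher in 1C11NE cells 75 (59.5%) were above 0 in BV2 cells, with 36 called higher and 5 called lower. Of all 11881 genes 49.0% were above 0 there, with 470 called higher and 707 lower. Of the 236 lower genes 71 were above 0, with 7 called lower and 2 higher. The median log2 fold change in BV2 cells was 0 for these 236 genes and 0 for all genes, and genes without counts in BV2 enter at 0. The difference between the lines was itself tested on a joint scaling of 12 libraries, and 457 of 13139 genes were called (3.48%), 241 more positive and 216 more negative in 1C11NE cells. These counts were 31 and 60 without BV2_PBS 1 and 606 and 377 without ACR 3. Of the 126 and 236 genes, 35 and 40 were among them. The ACR and PBS libraries that chose these genes also enter this test, so a raised share is built in. The called differences include genes with almost no counts in BV2 cells, such as Cc2d2a, for which no difference between the lines can be read. Prdx6 had 503, 583 and 551 CPM in ACR and 76.9, 71.4 and 82.3 CPM in PBS cells on that scale, and 256, 252 and 282 CPM in BV2_ACR and 206, 198 and 201 CPM in BV2_PBS. The difference of 2.44 ± 0.20 on the log2 scale passed the test (adjusted p = 1.47e-06). Gstp1 had 259, 221 and 202 CPM in BV2_ACR and 267, 264 and 220.3 CPM in BV2_PBS, with overlap, and also differed between the lines (2.09 ± 0.23, adjusted p = 0.000118). Ftl1 rose in 1C11NE cells and had 15052, 15236 and 14224 CPM in BV2_ACR and 13736, 14565 and 13088 CPM in BV2_PBS (1.27 ± 0.23, adjusted p = 0.00803). For Ccnd1 the line difference was -2.07 ± 0.24 (adjusted p = 0.000118), with 101, 88.9 and 80.9 CPM in BV2_ACR and 144, 132 and 114 CPM in BV2_PBS.

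Other redox genes rose in both lines. Gclm had 221, 228 and 181 CPM in BV2_ACR and 42.9, 44.3 and 41.3 CPM in BV2_PBS, and its log2 fold changes of 1.84 ± 0.15 in 1C11NE cells and 2.29 ± 0.15 in BV2 cells gave a difference that did not pass the test (-0.45 ± 0.20, adjusted p = 0.229). Likewise Srxn1 had a difference of 0.16 ± 0.21 (adjusted p = 0.768) and Blvrb of -0.26 ± 0.23 (adjusted p = 0.595). Txnrd1 rose more in BV2 cells, at 1.93 ± 0.15 against 1.18 ± 0.14 in 1C11NE cells (-0.75 ± 0.20, adjusted p = 0.0434). Gsta4, Pir, Aqp1, Slc1a3 and Col1a2 had no count in any BV2 library, so they could not be compared. A difference that misses the threshold does not show that the lines respond alike.

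**Figure D5:**
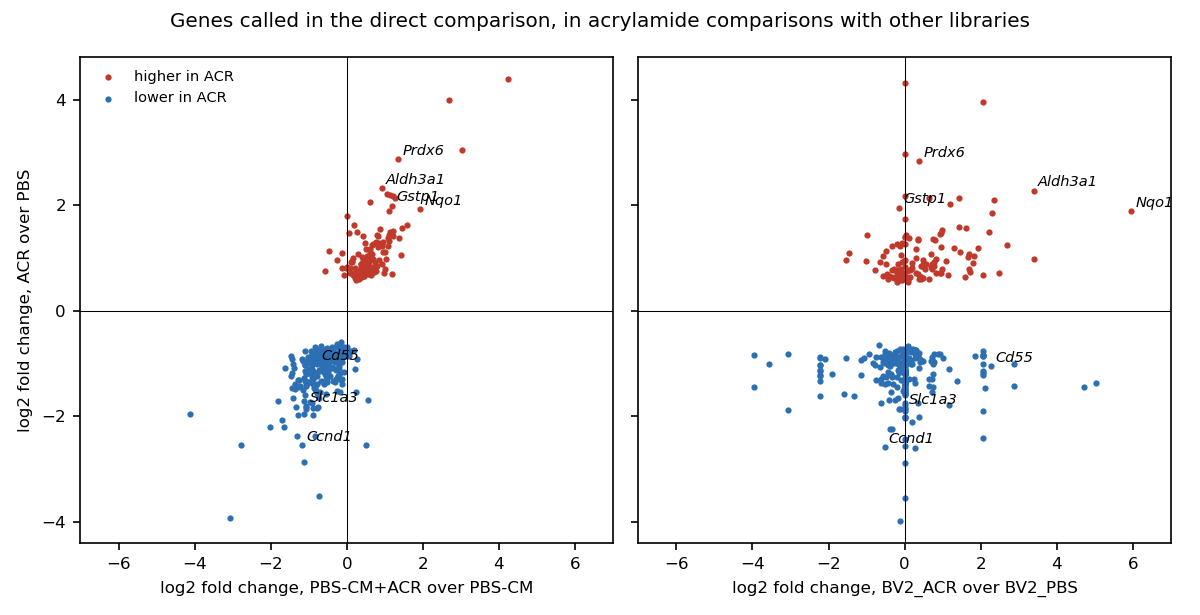
Points are the 362 genes called in the direct comparison, red where higher and blue where lower in ACR cells, with their direct log2 fold change (ACR over PBS) on the y axis. The x axis gives the log2 fold change of the same genes for PBS-CM+ACR over PBS-CM (left, 118 of 126 red points above 0) and for BV2_ACR over BV2_PBS (right, 75 of 126 above 0). Columns of points at 0 or at equal values on the right are genes with no or few counts in BV2 cells.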

How the data were processed

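RNA of 6 libraries (3 ACR, 3 PBS) was captured by poly(A) and sequenced on an Ion GeneStudio S5, per the labels' protocols. The deposited table holds raw counts per gene symbol made by the authors; reads were aligned with Bowtie2 2.2.5, per the submitters' processing notes. Not given in the sources used here are the genome build, annotation, counting program and use of strand, so reads of overlapping and antisense genes cannot be told apart. Total counts ranged from 3980649 to 7391991 per library. A single count was worth 0.135 to 0.251 CPM, and counting error limits low genes.

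Genes passing edgeR's filterByExpr (about 2.17 CPM in at least 3 libraries) were scaled by TMM and tested with edgeR's quasi-likelihood test (edgeR 4.0.16, robust, R 4.3.3) over the 6 libraries, with Benjamini-Hochberg adjustment over all genes tested and calls at an adjusted p below 0.05. Differences between acrylamide effects (with conditioned medium, and in BV2 cells) were interaction terms in fits of 12 libraries each. The method was tested on simulated counts. Alternatives were DESeq2 1.42.0, limma-voom (limma 3.58.1), RLE scaling, library totals, other filters, a non-robust prior, glmTreat at a fold of 1.2, 13 or 15 libraries of 1C11NE in the fit, a replicate block and leaving out each library. Leaving out a library leaves 2 in its group and pools the spread. Promoter letters were searched in RefSeq sequences of GRCm38.p6 with Python 3.11.15, and figures were drawn with matplotlib 3.10.9.

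The text names the 20 largest increases and decreases among called, non-overlapping genes with at least 20 CPM in 1 group (predicted genes passed over), called members of 52 gene lists, up to 4 abundant members not called per list, regulators and cell type markers, the 6 largest called differences in each direction per interaction, and genes beside the threshold; a few genes that this takes in are not reported here. The members and lists were chosen with earlier results of these data known.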

Additional observations from a re-analysis of the deposited data

Results flagged for a closer look

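For 12 genes, the 6 largest in each direction among called differences with at least 20 CPM in 1 group, the difference in acrylamide effect between 1C11NE and BV2 cells passed edgeR's interaction test over all genes. Of these, Clec4d, Ankrd37, Cc2d2a, Cd200r4, Rpph1 and Cd55 had fewer than 2 CPM in both groups of 1 line and passed the filter through the other line, so no difference between the lines is read from them. The differences are log2 fold changes in 1C11NE minus those in BV2 cells, and the levels are mean CPM on the joint scale of 12 libraries.

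More positive differences in 1C11NE cells included those of the redox genes Prdx6 (2.44 ± 0.20) and Gstp1 (2.09), whose levels are given above. The chemokine gene Ccl7 (2.49 ± 0.39, adjusted p = 0.00242) had 22.8 CPM in ACR and 11.8 CPM in PBS cells, against 5.04 CPM in BV2_ACR and 14.7 CPM in BV2_PBS, so the lines moved in opposite directions. Layn (1.94 ± 0.31, adjusted p = 0.00302), a hyaluronan receptor, had 19.8 CPM in ACR and 10.6 CPM in PBS cells, and 43.4 CPM in BV2_ACR and 87.6 CPM in BV2_PBS. Ankrd37 (2.60 ± 0.61, adjusted p = 0.027) had 1.37 CPM in ACR and 0.487 CPM in PBS cells, and 13.6 CPM in BV2_ACR and 32.1 CPM in BV2_PBS. Clec4d (3.20 ± 0.75, adjusted p = 0.027), a lectin receptor of myeloid cells, had 0.841 CPM in ACR and 0.106 CPM in PBS cells, and 246 CPM in BV2_ACR and 323 CPM in BV2_PBS.

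More negative differences included that of the quinone reductase gene Nqo1 (-4.08 ± 0.64, adjusted p = 0.00242), which rose in both lines. Nqo1 had 112 CPM in ACR and 30.4 CPM in PBS cells, and 12.7 CPM in BV2_ACR and 0.191 CPM in BV2_PBS. Cd55 (-3.33 ± 0.60, adjusted p = 0.00769) had 123 CPM in ACR and 255 CPM in PBS cells, and 1.42 CPM in BV2_ACR and 0.268 CPM in BV2_PBS. Cc2d2a (-6.41 ± 1.51, adjusted p = 0.0294), a gene of the ciliary base, had 28.7 CPM in ACR and 74.4 CPM in PBS cells, and 0.801 CPM in BV2_ACR and 0 CPM in BV2_PBS. The transcription factor gene Nfatc2 (-2.88 ± 0.42, adjusted p = 0.0015) had 1.98 CPM in ACR and 12.5 CPM in PBS cells, and 93.9 CPM in BV2_ACR and 77.0 CPM in BV2_PBS. Rpph1 (-3.49 ± 0.96, adjusted p = 0.0495), the RNA of ribonuclease P, had 0.177 CPM in ACR and 0.277 CPM in PBS cells, and 183 CPM in BV2_ACR and 23.8 CPM in BV2_PBS. Cd200r4 (-4.82 ± 1.06, adjusted p = 0.0234) had 0 CPM in ACR and 0.833 CPM in PBS cells, and 67.6 CPM in BV2_ACR and 85.4 CPM in BV2_PBS. Nqo1 and Nfatc2 had fewer than 2 CPM in 1 group of 1 line, so the size of their differences, like that of the 6 genes above, depends on the prior count and is no bound.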

How the results depend on the processing

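The 126 higher and 236 lower genes became 58 and 90 with all 15 libraries of 1C11NE in the fit, 216 and 338 with 13, and 59 and 128 with glmTreat at a fold of 1.2. Without a filter on low counts, 415 genes were lower. Leaving out 1 library gave 51 to 198 higher and 107 to 378 lower genes. The cause of these shifts was not tested. DESeq2, limma-voom, RLE scaling, library totals, the filter at 10 CPM and the non-robust prior stayed within 1.5 times of both counts. Of the 136 called genes named by rule none changed direction under any of 17 alternatives, 58 were called under all of them and 69 whichever library was left out.

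The counts that differed between lines, 241 positive and 216 negative, were 672 and 329 by DESeq2, with 370 negative without a filter, and 31 to 606 and 60 to 377 leaving out 1 library. For conditioned medium, where edgeR called 0 in either direction, DESeq2 called 1 positive and 2 negative differences, a fit without a filter 2 negative, and a fit without both libraries that stand apart 1 positive and 1 negative. Every fit that left out 1 library gave 0 in both directions.

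Same-numbered ACR and PBS libraries did not deviate together, with correlations of -0.02, -0.37 and -0.32, so the numbers were not taken as pairs. A replicate block gave 56 higher and 124 lower genes, 140 positive and 138 negative differences between lines and 0 with conditioned medium, and 53 of the 136 named genes were not called under it.

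With 3 libraries a group, small changes of low genes could not be called. Whether replicates were separate cultures is not given.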

Other observations

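The gene groups below were put together after their values were seen, so their counts are descriptions with no test, and a raised share is built in. Of all genes tested 1.99% were called lower. Of 13 tested receptor and peptide genes of sensory, adrenergic and natriuretic signalling 9 were lower and 0 higher in ACR cells, with a median log2 fold change of -1.07. The ATP-gated channel gene P2rx3 had 20.2, 18.5 and 19.7 CPM in ACR cells and 45.8, 50.2 and 46.4 CPM in PBS cells (edgeR, -1.29 ± 0.16, adjusted p = 0.000291). The natriuretic peptide receptor genes Npr3 and Npr2 had 98.2 CPM in ACR cells and 207 CPM in PBS cells (adjusted p = 0.00231), and 111 CPM in ACR cells and 211 CPM in PBS cells (adjusted p = 0.0128). The alpha-1B adrenergic receptor gene Adra1b had 7.85 CPM in ACR cells and 16.7 CPM in PBS cells (adjusted p = 0.0335), and the acid-sensing channel gene Asic1 had 2.17 CPM in ACR cells and 7.57 CPM in PBS cells (adjusted p = 0.00842). Npr1 of the same family as Npr2 did not pass the test (adjusted p = 0.871).

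Of 8 tested Hedgehog genes 3 were lower and 0 higher, with a median of -0.69. The co-receptor gene Gas1 had 283, 256 and 339 CPM in ACR cells and 725, 810.2 and 577 CPM in PBS cells (edgeR, -1.27 ± 0.21, adjusted p = 0.00251). The receptor and target gene Ptch1 had 5.35 CPM in ACR cells and 12.8 CPM in PBS cells (adjusted p = 0.00627), and the transcription factor gene Gli2 had 147 CPM in ACR cells and 277 CPM in PBS cells (adjusted p = 0.016). Smo, the signal transducer, had 57.1 CPM in ACR cells and 60.03 CPM in PBS cells and Gli3 164 CPM in ACR cells and 188 CPM in PBS cells, and neither passed the test (adjusted p = 0.914 and 0.672).

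Among the 236 lower genes were 28 that encode transcription factors or related regulators, picked because they were called. Lmo4 had 514, 452 and 378 CPM in ACR cells and 806, 1085 and 701 CPM in PBS cells (edgeR, -0.95 ± 0.22, adjusted p = 0.0268), Hdac9 had 27.7, 22.7 and 31.5 CPM in ACR cells and 59.98, 72.2 and 63.9 CPM in PBS cells (-1.26 ± 0.17, adjusted p = 0.00059) and Rorb had 20.2, 21.7 and 20.2 CPM in ACR cells and 55.7, 40.7 and 54.2 CPM in PBS cells (-1.27 ± 0.18, adjusted p = 0.000646). In none of these 3 genes did ACR and PBS libraries overlap, which was true of every called gene.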
